A study of Homo sapiens with 15 samples.

Results

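The contractile and actin cytoskeleton genes were followed as a set of 47 genes among the 57736 genes of a count table of human IMR90 fibroblasts. The rule is a list of names of actin, myosin, tropomyosin and actin-binding genes. It uses no measured value, though the list was drawn up with earlier results of these data known. Each of the 47 was found in the table and passed the filter on low counts, DES only through the growing libraries. IMR90 is a line of fetal lung fibroblasts. The table holds 15 RNA-seq libraries in 5 groups of 3: growing cells in the control condition, senescent cells in the control condition, senescent cells labelled shTXNRD1 (a short hairpin RNA against TXNRD1, the cytosolic thioredoxin reductase), senescent cells with DMSO, and senescent cells given Tri-1. Tri-1 is a compound that inhibits TXNRD1 itself, and DMSO is its vehicle. The study compared growing and senescent cells and cells in which TXNRD1 was inhibited. All libraries come from 1 cell line, and the treated groups are all senescent, so no treatment was measured in growing cells. The labels do not give how senescence was induced, the dose and duration of Tri-1, the control for the hairpin or whether replicates were separate cultures. Each p-value thus reflects only spread among these samples, which may be technical.

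Actin filaments grow from monomers delivered by profilins, are cut and recycled by cofilins, and are bundled by alpha-actinins and filamins. Myosin II motors pull on filaments decorated with tropomyosin, calponin and caldesmon, and the same machinery in a specialised form contracts smooth muscle and drives tension in fibroblasts. Serum response factor, encoded by SRF, binds a DNA element called the CArG box in many actin and smooth muscle genes. Its coactivators are the MRTF proteins, which sense the pool of free actin, and myocardin, encoded by MYOCD, which drives the smooth muscle programme. ANKRD1 is a well known target of the YAP and TAZ coactivators, which act through TEAD transcription factors.

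Stretches before the start sites of 5 members are shown because the results below concern the targets and regulators of this transcription system. They are the 250 bases before the start, 5′ to 3′ on the gene's strand, from RefSeq on GRCh38.p14. Capitals mark CArG boxes in the first 4 and the letters GGAATG, the reverse complement of the TEAD motif CATTCC, in ANKRD1. SRF is read from chr6:43171019-43171268 on the plus strand, ACTG1 from chr17:81512800-81513049 on the minus strand, ACTG2 from chr2:73892758-73893007 on the plus strand, FLNA from chrX:154374635-154374884 on the minus strand and ANKRD1 from chr10:90921088-90921337 on the minus strand.
SRF: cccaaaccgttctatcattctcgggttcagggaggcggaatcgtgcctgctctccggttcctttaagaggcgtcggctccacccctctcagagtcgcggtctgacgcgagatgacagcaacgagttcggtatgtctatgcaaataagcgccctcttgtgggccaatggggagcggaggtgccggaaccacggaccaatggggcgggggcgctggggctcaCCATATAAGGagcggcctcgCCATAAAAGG
ACTG1: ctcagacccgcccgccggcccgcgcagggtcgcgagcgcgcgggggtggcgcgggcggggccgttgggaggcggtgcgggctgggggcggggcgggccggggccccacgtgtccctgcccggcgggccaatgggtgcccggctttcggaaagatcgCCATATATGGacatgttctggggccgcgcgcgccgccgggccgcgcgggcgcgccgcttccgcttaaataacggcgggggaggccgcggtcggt
ACTG2: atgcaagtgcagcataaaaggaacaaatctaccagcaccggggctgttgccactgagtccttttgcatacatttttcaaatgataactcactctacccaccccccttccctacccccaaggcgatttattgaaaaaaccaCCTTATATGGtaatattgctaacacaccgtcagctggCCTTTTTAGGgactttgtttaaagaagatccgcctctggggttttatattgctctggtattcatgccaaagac
FLNA: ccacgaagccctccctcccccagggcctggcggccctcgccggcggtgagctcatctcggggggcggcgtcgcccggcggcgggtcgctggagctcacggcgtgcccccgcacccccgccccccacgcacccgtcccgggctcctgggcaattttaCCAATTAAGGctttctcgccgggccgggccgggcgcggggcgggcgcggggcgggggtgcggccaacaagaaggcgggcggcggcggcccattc
ANKRD1: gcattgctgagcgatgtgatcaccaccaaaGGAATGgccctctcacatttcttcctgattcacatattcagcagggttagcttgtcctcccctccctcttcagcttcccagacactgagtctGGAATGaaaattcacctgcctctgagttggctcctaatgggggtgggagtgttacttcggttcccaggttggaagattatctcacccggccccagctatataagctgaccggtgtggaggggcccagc
The first base of each match lies 30 and 10 bases before the start of SRF, 94 before that of ACTG1, 110 and 73 before that of ACTG2 and 94 before that of FLNA. In ANKRD1 the TEAD letters begin 220 and 128 bases before the start.

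RefSeq windows of 300 bases, from 250 before to 50 after each start, were found for 40 of the 47 members. No window was found for ACTB, TAGLN, DES, MYL9, MYH11, MYOCD and PFN2. A CArG box in its strict form, on either strand, was in a window of 10 of the 40 members (25%), against 438 of 27305 genes (1.6%). The other members with one were CNN2, TPM4, MYLK, ACTN1, FHL1 and FHL2. CATTCC on either strand was in a window of 15 of the 40 (37.5%), against 4567 of 27305 genes (16.7%). A gene with several start sites has several windows, so it has more room for a match, and the 40 members have 81 windows. Per window, CATTCC was in 16 of the 81 (19.8%), against 4928 of 35116 windows of all genes (14%). CArG boxes were in 12 of the 81 (14.8%), against 454 of 35116 (1.29%). Such matches describe letters in the sequence and do not show that a factor binds there.

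Library totals ran from 18033076 to 28909046 counts. The hairpin check held: TXNRD1 changed by -4.51 ± 0.08 on the log2 scale between shTXNRD1 and senescent control libraries (adjusted p = 2.02e-13). The mean GC content of the counted genes, weighted by count, ran from 46.96% to 49.08% over the libraries, and growing replicate 1 (47.39%), shTXNRD1 replicate 3 (46.96%) and DMSO replicate 1 (47.95%) stood lowest in their groups. Levels of GC-rich members moved with this value. Markers of fibroblasts (10 of 10, COL1A1 and THY1 among them) were detected in every group. Their summed level in CPM (counts scaled to library size) was 16500 to 21800 in growing, 17000 to 19600 in senescent control, 12300 to 15700 in shTXNRD1, 15500 to 18100 in DMSO and 11700 to 12400 in Tri-1 libraries. With the hairpin 6 of 10 fell and 3 rose (adjusted p under 0.05), against 24.8% and 25.8% of all genes tested. With Tri-1 7 of 10 fell and 1 rose, against 12.2% and 7.64% of all genes. Endothelial markers summed to 2.85 to 4.2 CPM in senescent control and 9.1 to 9.81 CPM in shTXNRD1 libraries. Of the 3 tested, only KDR rose with the hairpin (4.10 ± 0.26 on the log2 scale, adjusted p = 1.58e-08), and the other 2 fell. KDR was named after its values were seen. Over all libraries epithelial markers summed to 45.8 to 82.8 CPM and leukocyte markers to 15.6 to 93.3 CPM. Of 5 epithelial markers tested, 1 rose with the hairpin (EPCAM, 1.74 ± 0.25) and 1 fell. Of 3 leukocyte markers tested, only CD68 was called, higher with senescence (1.85 ± 0.23) and lower with the hairpin (-1.44 ± 0.22). EPCAM and CD68 too were named after their values were seen. Of 12 skeletal and cardiac muscle markers, MYOD1, MYOG, MYF5, CKM and TNNT3 were at 0 in all groups, and the list summed to 0.15 to 1.9 CPM. The 8 pericyte and vascular smooth muscle markers, which include the members MYH11 and MYOCD, were all detected and summed to 376 to 552 CPM in growing, 494 to 538 in senescent control, 307 to 406 in shTXNRD1, 508 to 579 in DMSO and 402 to 427 in Tri-1 libraries. The part of these markers in the results was not tested.

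Together the 47 genes held 4.19% to 5.14% of all counts in growing cells and 2.94% to 3.18% in senescent control cells. The share was 1.71% to 2.19% with the hairpin, 2.71% to 3.02% with DMSO and 3.31% to 3.42% with Tri-1. The ranges did not overlap for senescent against growing cells, the hairpin against senescent control or Tri-1 against DMSO, while DMSO and senescent control libraries overlapped. In bulk RNA, fewer cells of a type and less RNA per cell cannot be told apart. Below, levels are CPM scaled by TMM, in the order of replicates 1, 2 and 3, and changes are log2 fold changes ± SE from edgeR's quasi-likelihood test with p-values adjusted by Benjamini-Hochberg over 15994 genes. Genes were called at an adjusted p under 0.05, and every group has n = 3 libraries.

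**Figure D1:**
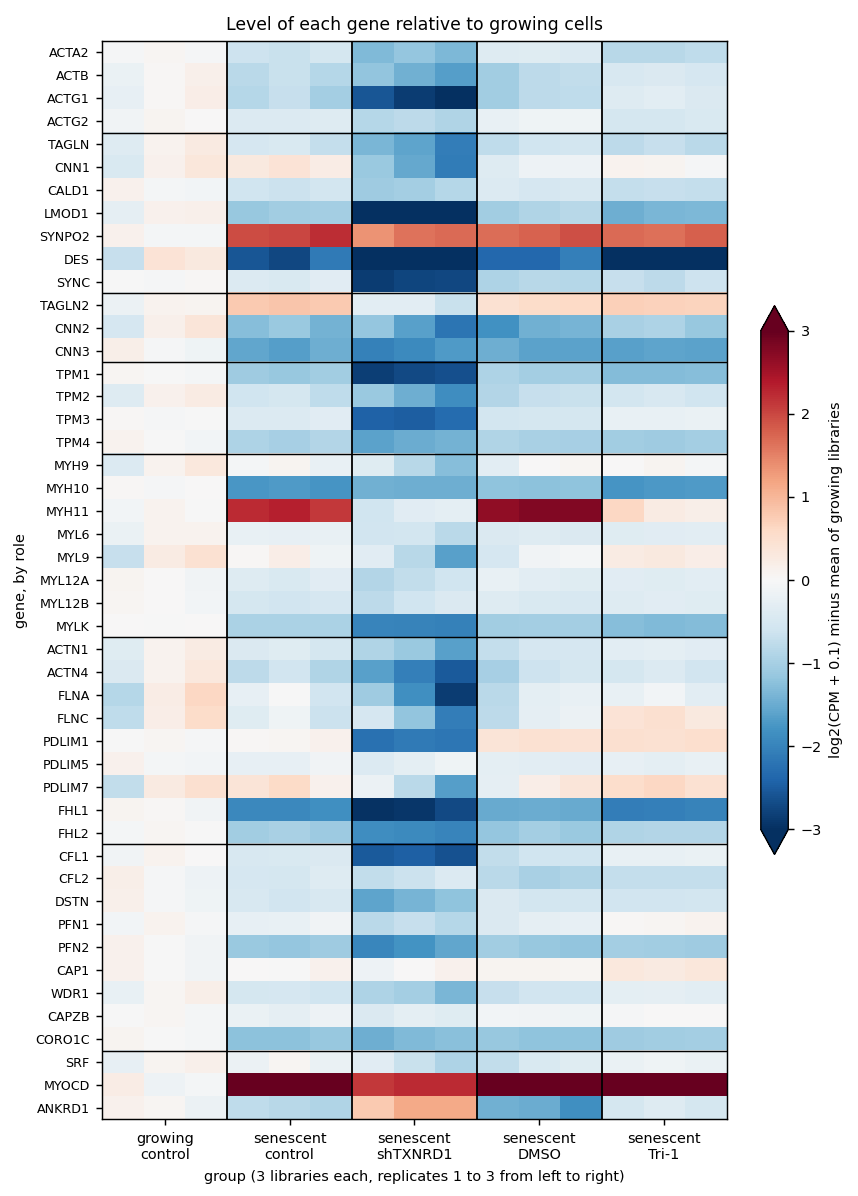
Level of the 47 genes (rows, grouped by role) in the 15 libraries (columns), as log2(CPM + 0.1) minus the mean of the 3 growing libraries of that gene; red is higher and blue lower. Most rows are blue in senescent libraries and darker blue in the shTXNRD1 libraries, while MYOCD, MYH11 and SYNPO2 are red in senescent control cells; DES rests on few counts.

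Per kilobase of exon, the set was led by the cytoplasmic actins. In growing cells ACTB, the beta-actin gene, stood at 2115 ± 266 CPM per kilobase (mean ± SD) and ACTG1, the gamma-actin gene, at 1496 ± 224. The tropomyosin TPM2 (529 ± 116), the profilin PFN1 (441 ± 28.5) and the myosin light chain MYL6 (389.7 ± 44.8) followed. The intervals of mean ± SD overlapped between TPM2 and PFN1 and between PFN1 and MYL6, and not between ACTB and ACTG1. The place of the tropomyosins depends on the length used: of the family in growing cells TPM2 held the largest share per exon length, TPM1 per median transcript length (42.6%, against 27.8% for TPM2) and TPM4 by raw counts (36.5%, against 31.8% for TPM1 and 22.4% for TPM2). Other members depend on the length as well. CFL1, a cofilin, held 53.0% of its family in growing cells per exon length and 79.2% per median transcript length. The order across families was taken per exon length only. ACTA2, the smooth muscle alpha-actin gene and a usual marker of myofibroblasts, stood at 298 ± 11.7 CPM per kilobase. At the low end were MYOCD (0.710 ± 0.1002), DES, the muscle intermediate filament desmin (0.522 ± 0.203), SYNPO2, a smooth muscle actin-bundling protein (0.438 ± 0.0340), and MYH11, the smooth muscle myosin heavy chain (0.0737 ± 0.00512).

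Senescent control cells were compared with growing control cells to show how the contractile genes differ with senescence. Most members were lower in senescent cells: 34 of 47 fell, 4 rose and 9 were not called. The 4 that rose were MYOCD, MYH11, SYNPO2 and TAGLN2, and the first 3 are best known from smooth muscle. Other smooth muscle members, ACTA2, ACTG2, TAGLN, CALD1 and LMOD1 among them, fell, and CNN1 and MYL9 were not called. Apart from DES, which had few counts, the deepest called falls were in FHL1, MYH10, CNN3 and CNN2. Over all 15994 genes tested, 27.4% were called higher and 29.5% lower, against 8.51% and 72.3% of the members; the median change was -0.479 for the members and 0.0316 for all genes.

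MYOCD showed the largest change of the set. Its levels were 7.30, 5.59 and 6.01 CPM in growing and 116, 119 and 128 CPM in senescent control cells, a log2 change of 4.26 ± 0.09 (adjusted p = 3.05e-14). The groups were far apart, with little spread within either. SRF, the factor that myocardin binds, stood at 63.2, 79.9 and 84.1 CPM in growing and 66.8, 77.7 and 65.0 CPM in senescent cells, overlapping ranges, with a change of -0.12 ± 0.14 (adjusted p = 0.501). ANKRD1 fell from 26.8, 25.9 and 21.8 to 14.6, 13.9 and 13.1 CPM, with every growing library above every senescent one (-0.84 ± 0.12, adjusted p = 3.14e-05).

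All 4 actin genes fell. ACTA2 went from 869, 926 and 863 CPM in growing to 574, 562 and 617 CPM in senescent cells (-0.60 ± 0.06, adjusted p = 9.8e-07). ACTG2, the smooth muscle gamma-actin gene, went from 567, 646 and 608 to 453, 459.5 and 466 CPM (-0.40 ± 0.06). ACTB went from 6423, 7640.0 and 8263 to 4245, 4634 and 4074 CPM (-0.79 ± 0.12) and ACTG1 from 3763, 4579 and 5091 to 2463, 2740.0 and 2185 CPM (-0.86 ± 0.13). No actin gene had overlapping libraries between growing and senescent cells. The falls of the muscle-type and cytoplasmic actins ran from -0.86 to -0.40. How reads shared between near-identical actin genes were counted is not given, so the split between actin genes is uncertain.

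Among smooth muscle filament proteins, 1 of 7 rose and 5 fell. SYNPO2 rose from 6.70, 5.88 and 5.87 to 24.2, 24.8 and 28.8 CPM (2.07 ± 0.11, adjusted p = 1.16e-09). CALD1, the caldesmon gene (-0.60 ± 0.07), SYNC, a partner of intermediate filaments (-0.40 ± 0.06), and LMOD1, the leiomodin that starts new filaments in smooth muscle, fell; LMOD1 went from 108, 142 and 145 to 58.8, 63.5 and 64.2 CPM (-1.08 ± 0.13). DES had 18, 40 and 32 counts in growing and 3, 2 and 4 counts in senescent libraries (adjusted p = 3.65e-05). Of the senescent libraries only that with 4 counts is above 3 counts, taken as the detection floor of a library, so no fold is given. TAGLN, the transgelin gene of smooth muscle, went from 634, 899.9 and 1004 to 587, 604 and 507 CPM (-0.58 ± 0.17, adjusted p = 0.0117); without growing replicate 3 the adjusted p was 0.0614. CNN1, the calponin of smooth muscle, was not called (29.8, 44.7 and 52.3 against 50.6, 54.7 and 47.8 CPM, 0.27 ± 0.21, adjusted p = 0.293).

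The more widely expressed relatives did otherwise. TAGLN2 rose from 252, 308 and 300.4 to 495, 508 and 488 CPM (0.79 ± 0.09, adjusted p = 4.15e-06). CNN2 fell from 340.2, 536 and 626 to 200.5, 225 and 181 CPM (-1.31 ± 0.25) and CNN3 from 632, 542 and 512 to 188, 179 and 204 CPM (-1.56 ± 0.09). The growing and senescent libraries did not overlap for any of these 3 genes. As a share of the pair, on counts per exon length, TAGLN held 64.8% ± 3.24 in growing and 41.9% ± 1.90 in senescent cells (mean ± SD). CNN1 held 4.14% ± 0.888 of the 3 calponins in growing and 12.6% ± 0.591 in senescent cells, with no overlap between the libraries; an exact permutation test gave p = 0.1 for both shares, the smallest that 3 libraries against 3 allow.

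All 4 tropomyosin genes, which encode the filaments' coiled-coil covering, fell. TPM1 went from 2549, 2422 and 2339 to 1159, 1109 and 1177 CPM (-1.08 ± 0.06, adjusted p = 1.17e-09). TPM4 changed by -0.94 ± 0.06, TPM2 by -0.65 ± 0.18 and TPM3 by -0.38 ± 0.05.

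Myosin II genes split by chain. MYH11 rose from 1.11, 1.27 and 1.18 to 5.96, 6.33 and 5.45 CPM (2.31 ± 0.14, adjusted p = 5.07e-09), which remained low beside the other heavy chains. Its exons overlap those of NDE1 on the other strand over 765 bases, and the strand used in counting is not given; NDE1 changed by -0.91 ± 0.09 here. MYH10, the non-muscle heavy chain IIB, fell from 255, 243 and 254 to 74.8, 77.1 and 73.3 CPM (-1.74 ± 0.05, adjusted p = 3.96e-13). MYH9, the heavy chain IIA and the main one here, stood at 1513, 2161 and 2532 and 1931, 2152 and 1739 CPM with overlapping libraries (-0.09 ± 0.22, adjusted p = 0.739). The MYH10 share of the 3 heavy chains, per exon length, was 11.2% ± 2.81 in growing and 3.74% ± 0.291 in senescent cells.

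MYLK, the kinase that switches myosin II on, fell with a change of -0.95 ± 0.04. The light chains MYL12A (-0.40 ± 0.07), MYL12B (-0.53 ± 0.07) and MYL6 (-0.24 ± 0.08) fell as well, by less. MYL9, the regulatory light chain of smooth muscle, stood at 444, 853 and 978 CPM in growing and 730.3, 821 and 658 CPM in senescent cells (-0.04 ± 0.30, adjusted p = 0.918); the growing library at 444 CPM is the one of lowest GC content.

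Among crosslinkers and LIM scaffolds 5 of 9 fell and none rose. FHL1, a four-and-a-half LIM domain protein of muscle, fell from 273, 268 and 241 to 68.1, 68.4 and 73.0 CPM (-1.90 ± 0.07, adjusted p = 1.96e-11), and its relative FHL2 changed by -1.03 ± 0.06. The alpha-actinins ACTN4 (-0.78 ± 0.22) and ACTN1 (-0.47 ± 0.17) and the LIM protein PDLIM5 (-0.20 ± 0.08) also fell. The filamins FLNA (-0.38 ± 0.41) and FLNC (-0.46 ± 0.36) and the PDZ-LIM proteins PDLIM1 (0.07 ± 0.05) and PDLIM7 (0.28 ± 0.34) were not called.

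Of the 9 genes for filament turnover and capping, 8 fell. The largest of these changes were in CORO1C, a coronin (-1.20 ± 0.06), and PFN2, the minor profilin (-1.12 ± 0.09). CFL1, the main cofilin, went from 1232, 1419 and 1344 to 957, 969.6 and 992 CPM (-0.45 ± 0.06), CFL2 from 263, 229.6 and 212 to 165, 161 and 179 CPM (-0.48 ± 0.09), and PFN1 from 829.9, 939.8 and 862 to 738, 756 and 814 CPM (-0.19 ± 0.07, adjusted p = 0.0282). DSTN, the destrin gene (-0.52 ± 0.09), WDR1, a cofilin partner (-0.55 ± 0.10), and CAPZB, a capping subunit (-0.21 ± 0.05), fell too, and CAP1, which recycles monomers, did not pass the test (0.04 ± 0.07). The calls of ACTN1, MYL6, PDLIM5 and PFN1 were each lost when single libraries were left out, at adjusted p from 0.0561 to 0.137. For ACTN1 these were growing replicates 2 and 3 and each senescent replicate; for MYL6 growing 2 and 3 and senescent 2; for PFN1 growing 2 and senescent 1 and 2; for PDLIM5 growing 1 and senescent 1 and 2.

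**Figure D2:**
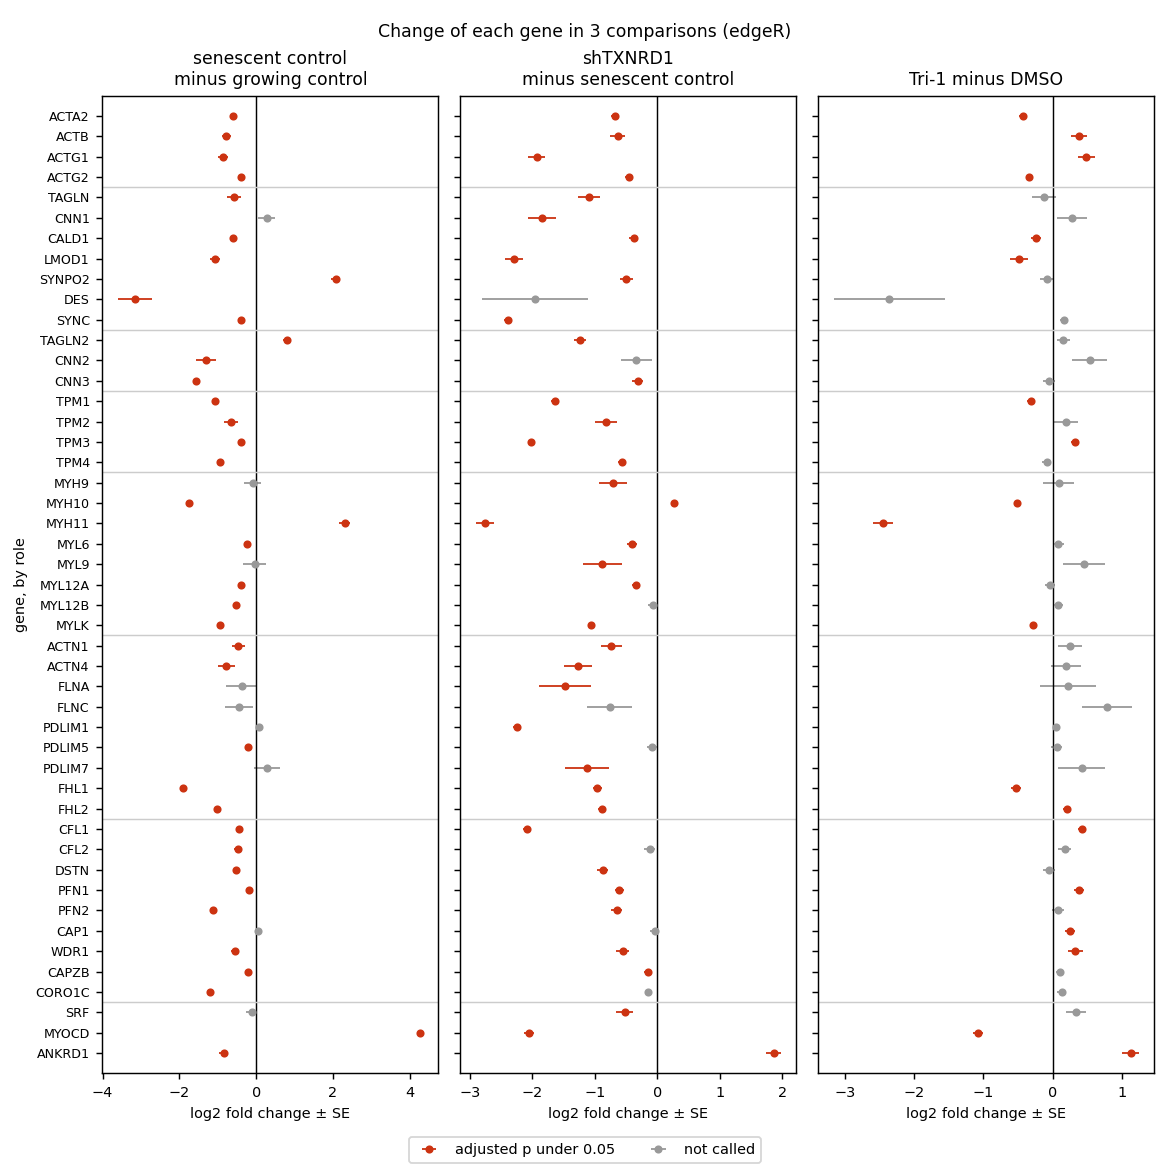
Log2 fold change ± SE of the 47 genes (rows, grouped by role) for senescence, the hairpin and Tri-1, from edgeR; red points were called at an adjusted p under 0.05 and grey points were not. Points lie mostly left of 0 for senescence (34 called lower) and the hairpin (37 called lower), and on both sides for Tri-1 (9 called higher and 10 lower); the DES values rest on few counts.

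To see how the set differs when senescent cells are depleted of TXNRD1, the shTXNRD1 libraries were set against the senescent control libraries. With the hairpin 37 of the 47 genes fell, 2 rose (ANKRD1 and MYH10) and 8 were not called. The deepest falls were in MYH11, SYNC, LMOD1, PDLIM1 and CFL1, each by more than 2 on the log2 scale. Of all genes tested 25.8% were called higher and 24.8% lower, against 4.26% and 78.7% of the members. The median change was -0.734 for the members and -0.0121 for all genes. After a correction for GC content it was -0.575 for the members and 0.00455 for all genes. Since there is 1 hairpin group, loss of TXNRD1 and off-target action of the hairpin cannot be told apart.

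The genes that had risen with senescence fell with the hairpin. MYOCD went from 116, 119 and 128 CPM in senescent control to 27.6, 29.8 and 30.03 CPM in shTXNRD1 cells (-2.06 ± 0.08, adjusted p = 6.98e-11), below the senescent controls and above the growing libraries. MYH11 went from 5.96, 6.33 and 5.45 to 0.750, 0.919 and 0.942 CPM (-2.75 ± 0.15, adjusted p = 3.61e-09), below its level in each growing library. NDE1, whose exons overlap MYH11, changed by -0.68 ± 0.09. TAGLN2 went from 495, 508 and 488 to 228, 228 and 179 CPM (-1.23 ± 0.09). SYNPO2 stood at 15.8, 19.3 and 20.02 CPM with the hairpin, a smaller fall (-0.50 ± 0.10) that left it above the growing libraries. The senescence and hairpin comparisons share the senescent control libraries.

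ANKRD1 moved the other way. Its levels were 14.6, 13.9 and 13.1 CPM in senescent control and 42.7, 54.2 and 54.5 CPM in shTXNRD1 cells (1.86 ± 0.12, adjusted p = 1.92e-08), so each hairpin library was above every growing library as well. MYH10 rose from 74.8, 77.1 and 73.3 to 92.2, 90.3 and 90.1 CPM (0.28 ± 0.04, adjusted p = 0.000132), a small rise with narrow spread. SRF stood at 58.9, 47.2 and 39.6 CPM (-0.52 ± 0.14, adjusted p = 0.00764); after a correction for GC content its change was -0.09 (adjusted p = 0.432).

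The actin genes fell unequally. ACTG1 went from 2463, 2740.0 and 2185 CPM to 756, 620.0 and 564 CPM (-1.93 ± 0.13, adjusted p = 3.71e-08), 3.81-fold lower. ACTB went from 4245, 4634 and 4074 to 3250.0, 2736 and 2360.0 CPM (-0.63 ± 0.12, adjusted p = 0.00043), and after the GC correction its change was -0.28 (adjusted p = 0.00761). ACTA2 went from 574, 562 and 617 to 351, 398 and 349 CPM (-0.67 ± 0.06) and ACTG2 from 453, 459.5 and 466 to 332, 349 and 323 CPM (-0.46 ± 0.06). As a share of the 4 actins per exon length, ACTG1 held 34.7% ± 1.60 in senescent control and 17.7% ± 0.580 in shTXNRD1 cells, while ACTB held 51.9% ± 0.346 and 64.8% ± 1.88. The libraries did not overlap for either share (exact permutation p = 0.1, the smallest possible).

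Similar unequal changes were seen in other families. CFL1 fell from 957, 969.6 and 992 to 230.2, 242 and 217 CPM (-2.08 ± 0.06, adjusted p = 1.62e-11), whereas CFL2, at 165, 161 and 179 and 139, 151 and 176 CPM, was not called (-0.12 ± 0.09, adjusted p = 0.294) and DSTN changed by -0.87 ± 0.09. Without shTXNRD1 replicate 3, CFL2 was called, at -0.22 (adjusted p = 0.0364). Per exon length, CFL1 held 54.1% ± 0.924 of the cofilin family in senescent control and 31.5% ± 3.41 in shTXNRD1 cells. TPM3 went from 540.0, 541 and 572 to 133, 129 and 145 CPM (-2.02 ± 0.05, adjusted p = 3.93e-12). TPM1 went from 1159, 1109 and 1177 to 343, 374 and 394 CPM (-1.63 ± 0.06), with TPM2 (-0.82 ± 0.18) and TPM4 (-0.57 ± 0.06) falling less.

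Among smooth muscle filament proteins 6 of 7 fell. SYNC went from 53.9, 52.2 and 56.1 to 9.85, 10.4 and 10.6 CPM (-2.39 ± 0.06, adjusted p = 3.93e-12); its exons overlap RBBP4 on the other strand over 1706 bases, and RBBP4 changed by -0.28 ± 0.09. LMOD1 went from 58.8, 63.5 and 64.2 to 15.6, 12.8 and 9.81 CPM (-2.29 ± 0.14). The groups were well separated for both genes. CNN1 went from 50.6, 54.7 and 47.8 to 19.0, 14.2 and 9.56 CPM (-1.84 ± 0.22, adjusted p = 1.96e-05) and TAGLN from 587, 604 and 507 to 318, 276 and 198 CPM (-1.10 ± 0.17). In both genes the lowest hairpin level was in replicate 3, the library of lowest GC content, but no hairpin library reached a control library. CALD1 changed by -0.38 ± 0.07. DES had 0, 1 and 1 counts with the hairpin, under the detection floor, so again no fold is given.

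PDLIM1, a PDZ-LIM protein of stress fibres, fell from 377, 379.9 and 404 to 77.9, 84.5 and 81.3 CPM (-2.25 ± 0.05, adjusted p = 1.15e-12), while PDLIM5 was not called (-0.08 ± 0.08). FHL1 fell from 68.1, 68.4 and 73.0 to 33.2, 34.3 and 39.9 CPM (-0.96 ± 0.07) and FHL2 changed by -0.88 ± 0.06. FLNA (-1.48 ± 0.41), PDLIM7 (-1.12 ± 0.35), ACTN4 (-1.27 ± 0.22) and ACTN1 (-0.73 ± 0.17) fell with wide errors, and FLNC (-0.76 ± 0.37, adjusted p = 0.102) was not called. Of the myosin genes MYLK changed by -1.06 ± 0.04. MYH9 went from 1931, 2152 and 1739 to 1584, 1141 and 837 CPM (-0.71 ± 0.22, adjusted p = 0.0166) and MYL9 from 730.3, 821 and 658 to 567, 403 and 233 CPM (-0.88 ± 0.31, adjusted p = 0.0304). MYL6 (-0.40 ± 0.08) and MYL12A (-0.34 ± 0.07) fell and MYL12B (-0.07 ± 0.07) was not called. The MYH9, MYL9 and PDLIM7 calls did not hold without single libraries: MYH9 and PDLIM7 without senescent control replicate 2 or shTXNRD1 replicate 2 or 3 (adjusted p 0.051 to 0.061), and MYL9 without those or senescent control replicate 1 (0.0621 to 0.0969). FLNC was called without shTXNRD1 replicate 1 (-1.22, adjusted p = 0.0156).

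Of the turnover genes, PFN1 went from 738, 756 and 814 to 498, 539 and 482 CPM (-0.60 ± 0.07, adjusted p = 4.97e-06), and after the GC correction its change was -0.30 (adjusted p = 0.109). PFN2 (-0.65 ± 0.09) and WDR1 (-0.55 ± 0.10) fell. CAPZB changed by -0.15 ± 0.05, a call lost without senescent control replicate 3 (adjusted p = 0.0953). CAP1 (-0.04 ± 0.07) and CORO1C (-0.14 ± 0.06) were not called. CNN3 went from 188, 179 and 204 to 137, 149 and 173 CPM (-0.32 ± 0.09), and CNN2, at 215, 158 and 107 CPM with the hairpin, was not called (-0.34 ± 0.25).

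**Figure D3:**
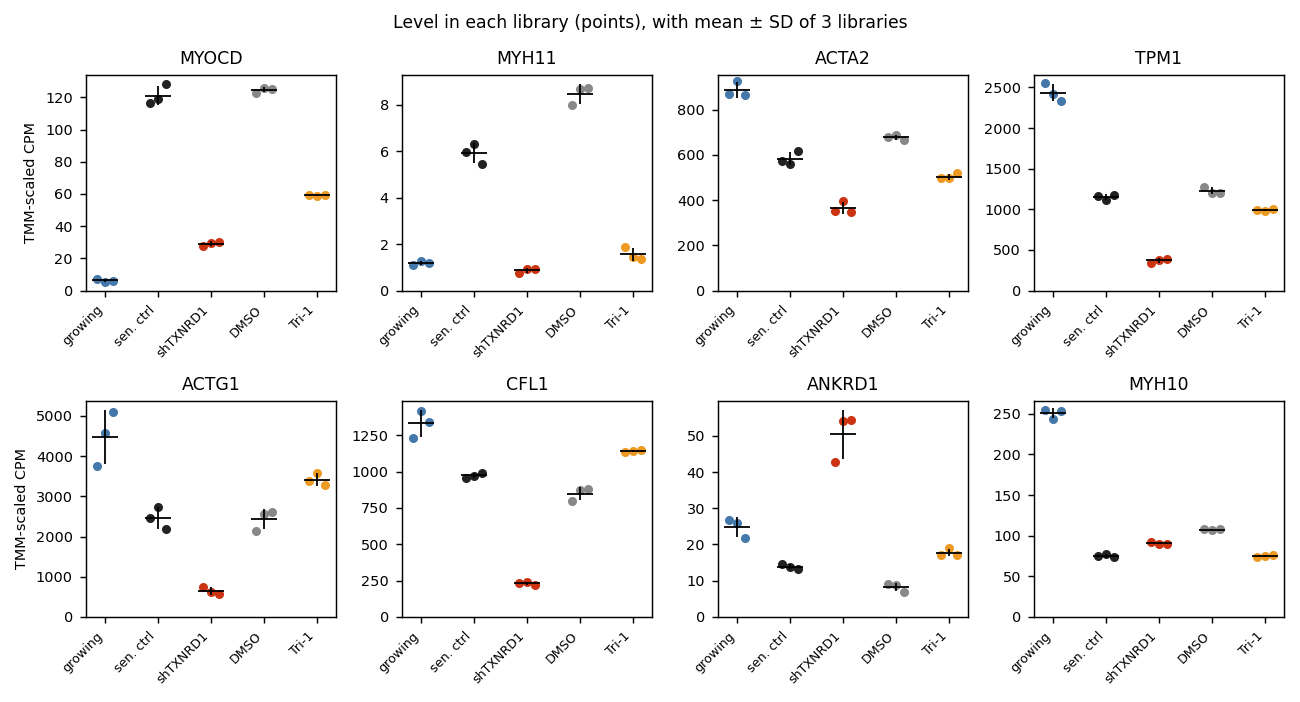
TMM-scaled CPM of 8 members in each library (points), with mean ± SD of the 3 libraries of a group (bars); each vertical axis starts at 0. MYOCD is near 6 CPM in growing cells and 116 to 128 CPM in senescent control cells, and ANKRD1 is highest with shTXNRD1, at 42.7 to 54.5 CPM.

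The effect of the inhibitor was measured as the difference between the Tri-1 and the DMSO libraries. The set split: 9 genes rose, 10 fell and 28 were not called. MYH11, MYOCD, FHL1, MYH10, LMOD1, ACTA2, ACTG2, TPM1, MYLK and CALD1 fell, and ANKRD1, ACTG1, CFL1, PFN1, ACTB, WDR1, TPM3, CAP1 and FHL2 rose. By role, 2 of 4 actins rose and 2 fell, 4 of 9 turnover genes rose and none fell, 3 of 8 myosin II genes fell and none rose, and 2 of 7 smooth muscle filament proteins fell and none rose. Of all genes tested 7.64% were called higher and 12.2% lower, against 19.1% and 21.3% of the members. The median change was 0.106 for the members and 0.0057 for all genes. With a single compound, effects of inhibiting TXNRD1 and other effects of Tri-1 cannot be told apart; TXNRD1 mRNA changed by 0.08 ± 0.07 (adjusted p = 0.483).

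MYH11 had the largest fall, from 7.98, 8.70 and 8.73 CPM with DMSO to 1.88, 1.43 and 1.35 CPM with Tri-1 (-2.45 ± 0.14, adjusted p = 3.64e-08), while NDE1 changed by -0.39 ± 0.09. MYOCD went from 123, 126 and 125 to 59.1, 58.8 and 59.2 CPM (-1.08 ± 0.07, adjusted p = 2.73e-07). Both groups of MYOCD values were narrow, and the Tri-1 libraries lay below the DMSO libraries and above those of growing and shTXNRD1 cells. FHL1 went from 91.3, 92.0 and 90.9 to 61.8, 63.1 and 65.0 CPM (-0.53 ± 0.07) and MYH10 from 108, 107 and 108 to 74.0, 75.5 and 76.5 CPM (-0.51 ± 0.04). ACTA2 went from 678, 688 and 667 to 497, 496 and 518 CPM (-0.43 ± 0.06, adjusted p = 0.000205). None of these genes had overlapping libraries. ACTG2 stood at 517, 553 and 552 and 422, 423 and 442 CPM (-0.33 ± 0.06), TPM1 at 1278, 1202 and 1201 and 991, 981 and 1006 CPM (-0.31 ± 0.06) and LMOD1 at 63.0, 69.7 and 73.7 and 47.1, 49.95 and 50.8 CPM (-0.48 ± 0.13, adjusted p = 0.0205). MYLK changed by -0.28 ± 0.04 and CALD1 by -0.24 ± 0.07 (adjusted p = 0.0231). The DES counts were 3, 3 and 6 with DMSO and 0, 1 and 1 with Tri-1, too few for a fold in the Tri-1 group.

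ANKRD1 rose, from 8.97, 8.70 and 6.88 to 17.2, 18.9 and 17.2 CPM (1.12 ± 0.12, adjusted p = 2.48e-05). ACTG1 went from 2148, 2560.0 and 2609 to 3389, 3586 and 3280.0 CPM (0.49 ± 0.13, adjusted p = 0.0153) and ACTB from 3587, 4325 and 4417 to 5326, 5440.0 and 5255 CPM (0.38 ± 0.12, adjusted p = 0.0353). All Tri-1 libraries were above the DMSO libraries for these 3 genes, and DMSO replicate 1, the one of lower GC content, was the lowest for both actins. CFL1 went from 798, 872 and 876 to 1132, 1141 and 1151 CPM (0.43 ± 0.06, adjusted p = 0.00025), PFN1 from 648, 722 and 737 to 903, 908 and 938 CPM (0.38 ± 0.07) and TPM3 from 489, 495 and 501 to 619.5, 613 and 622 CPM (0.32 ± 0.05). WDR1 (0.33 ± 0.10), CAP1 (0.24 ± 0.07) and FHL2 (0.21 ± 0.06) rose by less.

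Several of these calls were lost when a single library was left out. ACTB was not called without DMSO replicate 1 or 2 or any Tri-1 replicate (adjusted p 0.0589 to 0.155), nor WDR1 without any single library (0.0798 to 0.132). The ACTG1 call was lost without DMSO replicate 1 (0.0741) or Tri-1 replicate 2 (0.0675). CAP1, FHL2, CALD1 and LMOD1 also lost their calls: CAP1 without any library but Tri-1 replicate 2, FHL2 without DMSO 1 or 3 or Tri-1 2 or 3, CALD1 without DMSO 1 or any Tri-1 library, and LMOD1 without DMSO 2 or 3 or any Tri-1 library (0.0529 to 0.0952). Without DMSO replicate 1 only 4 members were called higher, and 5 without Tri-1 replicate 3.

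The remaining members were not called with Tri-1. SRF stood at 44.8, 54.5 and 58.4 and 65.4, 68.9 and 65.4 CPM (0.34 ± 0.14, adjusted p = 0.118), TAGLN at 492, 549 and 563 and 482, 517 and 472 CPM (-0.12 ± 0.17, adjusted p = 0.661) and CNN1 at 31.5, 36.8 and 37.1 and 44.3, 43.6 and 39.9 CPM (0.28 ± 0.21, adjusted p = 0.41). MYL9 stood at 502, 663 and 694 and 849, 885 and 822 CPM (0.46 ± 0.30) and MYH9 at 1621, 2042 and 2119 and 2051, 2138 and 1945 CPM (0.09 ± 0.22). For CNN1, SRF and MYL9 every Tri-1 library was above every DMSO library, but the errors of the changes were wide. SYNPO2 (19.9, 21.1 and 23.6 and 20.1, 19.4 and 21.5 CPM), TAGLN2 (393, 422 and 431 and 467, 464 and 457 CPM), PDLIM1 (482, 503 and 498 and 510.2, 508 and 521 CPM) and SYNC (37.7, 39.9 and 39.4 and 43.8, 41.3 and 45.9 CPM) changed by -0.08, 0.16, 0.05 and 0.16. CNN2 (137, 179 and 183 and 245, 255 and 222 CPM), CNN3 (203, 182 and 185 and 180.1, 186 and 184 CPM) and CFL2 (134, 119.9 and 124 and 143, 142 and 142 CPM) changed by 0.53, -0.05 and 0.17. Other members not called ran from -0.08 (TPM4) to 0.79 (FLNC, adjusted p = 0.159).

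The vehicle was compared with the senescent control to see how far the 2 senescent reference groups stand apart. Few members differed: 6 were higher, 4 lower and 37 not called with DMSO, against 8.36% called higher and 7.87% called lower of all genes, or 12.8% and 8.51% of the members. MYH11 (5.96, 6.33 and 5.45 against 7.98, 8.70 and 8.73 CPM, 0.52 ± 0.12) and MYH10 (74.8, 77.1 and 73.3 against 108, 107 and 108 CPM, 0.52 ± 0.04) were higher. FHL1 (0.39 ± 0.07), PDLIM1 (0.35 ± 0.05), ACTG2 (0.24 ± 0.06) and ACTA2 (0.21 ± 0.06, adjusted p = 0.0251) were higher too. ANKRD1 (14.6, 13.9 and 13.1 against 8.97, 8.70 and 6.88 CPM, -0.77 ± 0.12), SYNC (-0.47 ± 0.06), CFL2 (-0.42 ± 0.09) and CFL1 (-0.20 ± 0.06, adjusted p = 0.0428) were lower. MYOCD stood at 0.04 ± 0.07 (adjusted p = 0.784). The ACTA2 call was lost without any single library but senescent control replicate 3 (adjusted p 0.0574 to 0.092), the CFL1 call without any single library (0.0669 to 0.169) and the MYH11 call without senescent control replicate 3 (0.0528).

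The hairpin effect was then set against the Tri-1 effect, which have no libraries in common. Their difference was called lower in 35 members, higher in 2 (MYH10 and ANKRD1) and not called in 10. The deepest differences were in SYNC (-2.56 ± 0.09), CFL1 (-2.51 ± 0.09), ACTG1 (-2.42 ± 0.18), TPM3 (-2.34 ± 0.07) and PDLIM1 (-2.31 ± 0.07), with adjusted p from 6.09e-11 to 2.58e-07. Of all genes tested 22.1% were called higher and 19.5% lower in this difference, against 4.26% and 74.5% of the members. The median difference was -0.863 for the members and -0.0291 for all genes. After the correction for GC content it was -0.575 for the members and -0.00449 for all genes.

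Under both inhibitions 9 members fell (19.1%, against 5.43% of all genes tested): ACTA2, ACTG2, CALD1, FHL1, LMOD1, MYH11, MYLK, MYOCD and TPM1. ACTA2, ACTG2, FHL1 and MYH11 were also called higher with DMSO than in senescent control, and the rest were not. Mean CPM in senescent control, DMSO and Tri-1 libraries was 584, 678 and 504 for ACTA2, and 459, 541 and 429 for ACTG2. It was 69.8, 91.4 and 63.3 for FHL1, and 5.91, 8.47 and 1.56 for MYH11. The part of the DMSO reference in their Tri-1 falls was not tested. Of these 9, the difference was called in ACTA2 (-0.25 ± 0.08), FHL1 (-0.43 ± 0.10), LMOD1 (-1.81 ± 0.19), MYLK (-0.78 ± 0.06), MYOCD (-0.98 ± 0.10) and TPM1 (-1.33 ± 0.08), each deeper with the hairpin. It was not called in MYH11 (-0.31 ± 0.21, adjusted p = 0.355), ACTG2 (-0.12 ± 0.08, adjusted p = 0.237) and CALD1 (-0.14 ± 0.10, adjusted p = 0.256). The ACTA2 difference was not called without DMSO 1 or 3, Tri-1 3 or senescent control 3 (adjusted p 0.0572 to 0.079), and that of CALD1 was called without shTXNRD1 3 (-0.21, adjusted p = 0.0446). ANKRD1 rose under both, more with the hairpin (0.74 ± 0.17, adjusted p = 0.00339). It was lower with DMSO than in senescent control, with mean levels of 13.85, 8.18 and 17.77 CPM in senescent control, DMSO and Tri-1 libraries.

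In 7 members (14.9%, against 2.02% of all genes), ACTB, ACTG1, CFL1, FHL2, PFN1, TPM3 and WDR1, a fall with the hairpin stood against a rise with Tri-1. The difference was called in all 7, from -2.51 ± 0.09 in CFL1 to -0.88 ± 0.15 in WDR1. After the GC correction the difference was -0.53 in PFN1 (adjusted p = 0.0568), no longer called, -0.50 in ACTB (adjusted p = 0.00268) and -0.56 in WDR1 (adjusted p = 1.68e-09). CFL1 and TPM3 held both calls under every setting tried, while the Tri-1 call of ACTB, ACTG1, FHL2, PFN1 and WDR1 did not. MYH10 went the opposite way, higher with the hairpin than in senescent control and lower with Tri-1 than with DMSO (0.79 ± 0.06, adjusted p = 3.88e-07). Its Tri-1 libraries (73.97 to 76.49 CPM) lay within the range of senescent control (73.26 to 77.12 CPM). Its DMSO libraries (106.7 to 108.3 CPM) lay above both. A further 21 members (44.7%, against 17.4% of all genes) fell with the hairpin and were not called with Tri-1. Among them the difference was called in PDLIM1, SYNC, CNN1 (-2.12 ± 0.31), TAGLN2 (-1.39 ± 0.13), ACTN4 (-1.46 ± 0.31), TPM2 (-1.02 ± 0.25), TAGLN (-0.97 ± 0.24), SRF (-0.86 ± 0.20) and MYL9 (-1.34 ± 0.43), and not in MYH9 (-0.79 ± 0.31, adjusted p = 0.0565) or CNN3 (-0.26 ± 0.13, adjusted p = 0.118). MYH9 was called without shTXNRD1 replicate 1 (-1.07, adjusted p = 0.00829) and CNN3 without shTXNRD1 replicate 3 (-0.36, adjusted p = 0.0188). The MYL9 difference was not called without DMSO 1, Tri-1 2, senescent control 2 or shTXNRD1 2 (adjusted p 0.0502 to 0.0669). After the GC correction the SRF difference was -0.24 (adjusted p = 0.172), no longer called, and those of TAGLN (-0.57), TPM2 (-0.59), MYL9 (-0.79) and ACTN4 (-0.97) were smaller and still called.

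**Figure D4:**
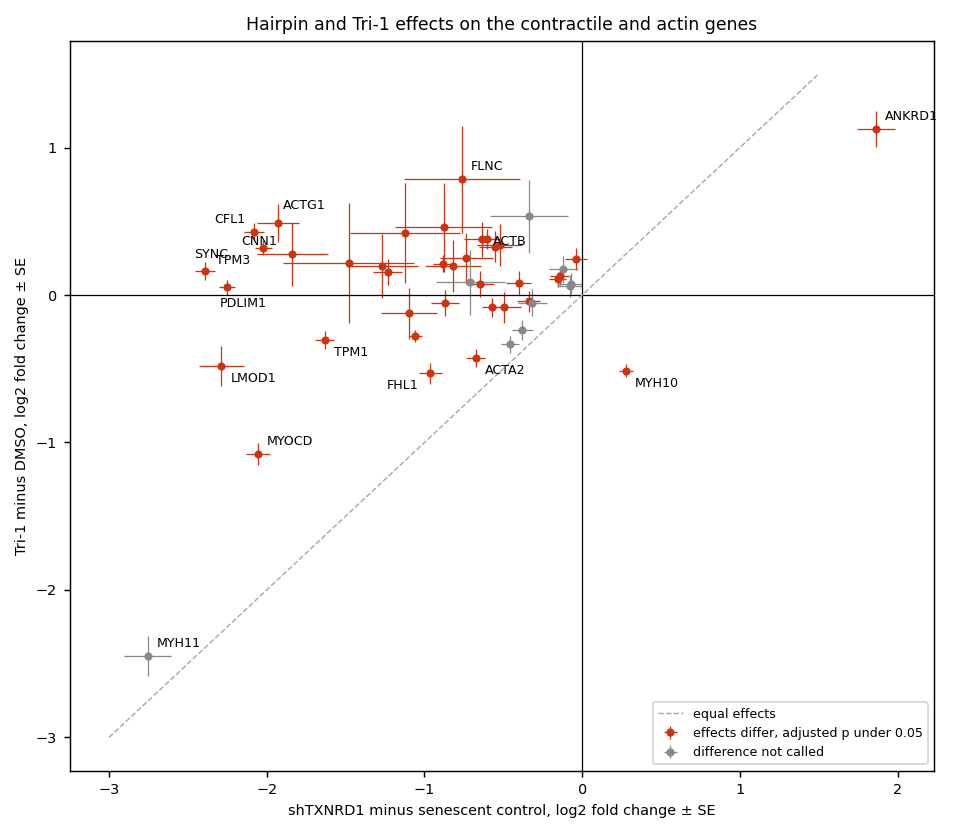
Log2 fold change ± SE of 46 members with the hairpin (horizontal axis) and with Tri-1 (vertical axis); DES, with too few counts, is left out. Red points have effects that differ at an adjusted p under 0.05, and the dashed line marks equal effects. CFL1, TPM3 and ACTG1 lie at the upper left (-2.08, -2.02 and -1.93 with the hairpin), MYH11 and MYOCD at the lower left and ANKRD1 at the upper right.

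Shares within families were taken on counts per exon length. Per library, ACTG1 held 35.7% to 37.8% of the 4 actins in growing, 32.9% to 36.0% in senescent control, 17.1% to 18.3% in shTXNRD1, 34.2% to 34.9% in DMSO and 38.1% to 39.7% in Tri-1 libraries. The shTXNRD1 libraries lay below all others. ACTA2 held 5.52% to 6.05% with Tri-1 and 8.98% to 10.8% with DMSO, and 8.54% to 11.1% with the hairpin. CFL1 held 27.6% to 34.1% of the cofilin family in shTXNRD1 and 59.2% to 59.5% in Tri-1 libraries, against 48.6% to 55.1% in senescent control and DMSO libraries. CFL2, the muscle cofilin, held 16.6% to 18.3% in shTXNRD1 and 7.49% to 7.93% in senescent control libraries. TPM3 held 4.09% to 5.51% of the tropomyosins in shTXNRD1 and 9.60% to 10.6% in senescent control libraries. PFN2 held 18.8% ± 2.01 of the profilins in growing and 10.8% ± 0.309 in senescent control cells, and 10.5% ± 1.66 with the hairpin. ACTN1 held 66.1% ± 1.42 of the alpha-actinins in senescent control and 73.9% ± 1.37 in shTXNRD1 cells. For each of these contrasts that did not overlap the exact permutation p was 0.1, so no share could reach the threshold of 0.05. The level of a share depends on the length used. Per median transcript length, PFN2 held 40.9% of the profilins in growing, 26.6% in senescent control and 26.0% in shTXNRD1 cells, CFL1 held 79.9% of its family in senescent control and 58.1% in shTXNRD1 cells, and MYH10 held 6.42% of the heavy chains in growing and 2.06% in senescent control cells. The direction of these shares was that found per exon length.

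**Figure D5:**
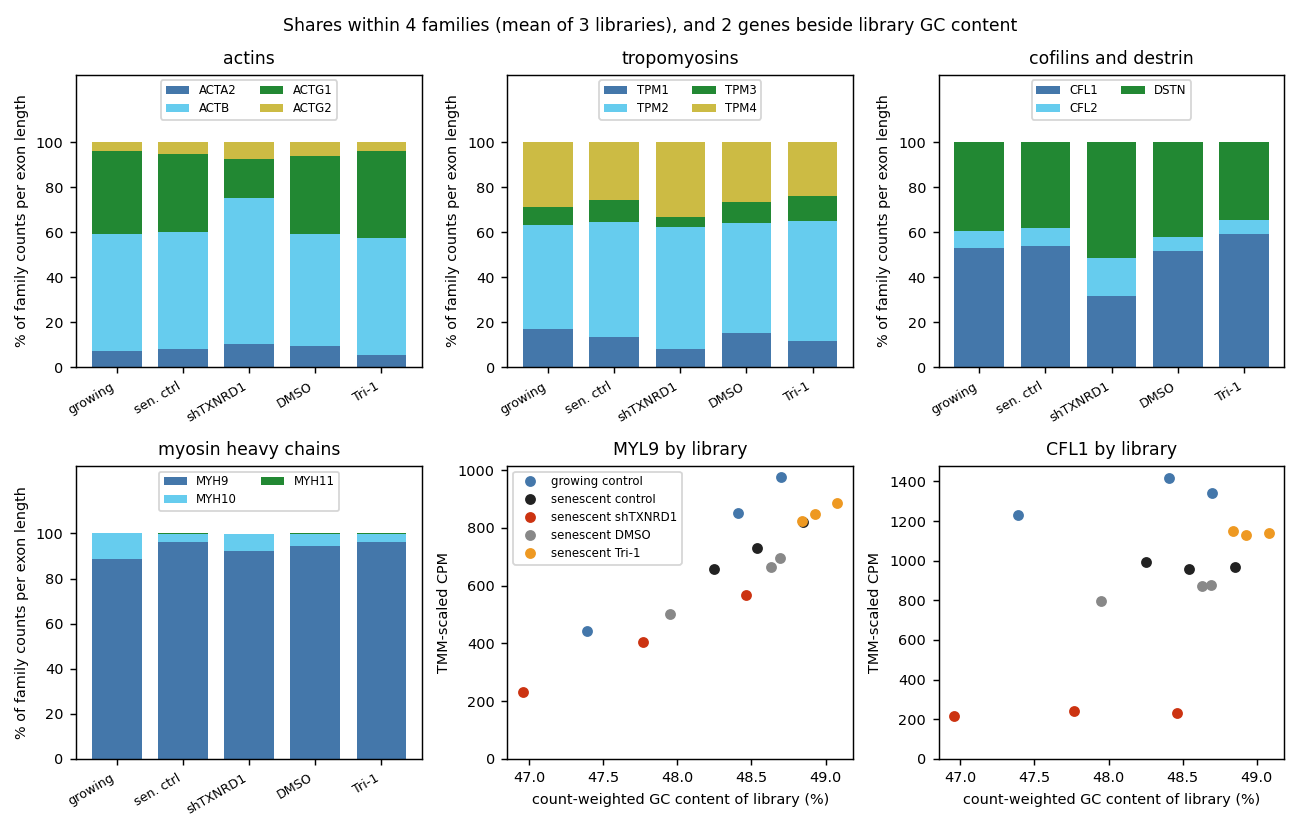
Stacked bars give each gene's share of its family on counts per exon length (mean of the 3 libraries of a group) for actins, tropomyosins, cofilins with destrin and myosin heavy chains; points give CPM of MYL9 and CFL1 in each library against the count-weighted GC content of that library. The ACTG1 and CFL1 shares are lowest with shTXNRD1 (17.7% and 31.5%), and MYL9 levels run with library GC content within groups while CFL1 levels in shTXNRD1 stay between 217 and 242 CPM.

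GC content moved with part of these results. MYL9, whose exons are 60.7% GC, stood at 444 CPM in the growing library of 47.39% and at 853 and 978 CPM in those of 48.41% and 48.70%. In shTXNRD1 libraries it stood at 567, 403 and 233 CPM at 48.46%, 47.77% and 46.96%. CFL1 (56.1% GC) showed no such spread among shTXNRD1 libraries. Across the 47 members, which share libraries, the Spearman correlation of change with exon GC content was 0.164 for senescence and -0.409 for the hairpin. It was 0.423 for Tri-1 and -0.514 for the hairpin effect minus the Tri-1 effect. These values were -0.22, -0.084, 0.125 and -0.109 after a correction of each library for GC content. The median member changes were then -0.643, -0.575, 0.0424 and -0.575 in the same order. After that correction 39 members were lower and 4 higher with senescence, 39 lower and 2 higher with the hairpin, and 13 lower and 15 higher with Tri-1. FLNA (-0.81), FLNC (-0.91), SRF (-0.57), MYL9 (-0.42) and MYH9 (-0.38) were then called lower with senescence. Hairpin changes that the correction made smaller by more than 1.5 times were those of SRF, PFN1, ACTB, PDLIM7 (-0.55), MYL9 (-0.52), MYH9 (-0.44), WDR1 (-0.35), FLNC (-0.34), CAPZB (-0.09, adjusted p = 0.128) and CNN2 (-0.05). PDLIM5 moved from -0.20 to -0.01 with senescence (adjusted p = 0.751). The hairpin changes of CFL2 (-0.33), PDLIM5 (-0.24), CORO1C (-0.23) and MYL12B (-0.20) became larger and were called. With Tri-1, the corrected rises of PFN1 (0.23, adjusted p = 0.263) and ACTB (0.21, adjusted p = 0.0556) were no longer called. TAGLN (-0.27, adjusted p = 0.000108), TPM4 and DES became called lower. CNN2, FLNC, CFL2, CORO1C, MYL12B, PDLIM5, PDLIM7 and PFN2 became called higher. Several of the largest hairpin changes moved less: CFL1 at -1.89, TPM3 at -2.12, SYNC at -2.35, PDLIM1 at -2.24, ACTG1 at -1.68, MYOCD at -2.13 and ANKRD1 at 1.71. Without growing replicate 1, shTXNRD1 replicate 3 and DMSO replicate 1, 37 members were lower with senescence, 41 lower with the hairpin, and 13 higher and 11 lower with Tri-1.

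Other genes of the pathway were taken from set lists. Of 16 tested genes for coactivators of SRF and for YAP and TEAD with their targets, 2 rose and 10 fell with senescence, 2 rose and 4 fell with the hairpin, and none rose and 5 fell with Tri-1. The shares of all genes called higher and lower were 27.4% and 29.5% with senescence, 25.8% and 24.8% with the hairpin and 7.64% and 12.2% with Tri-1, and the same shares apply to the lists that follow. In this list the shares lower were 62.5%, 25.0% and 31.2%, so that with the hairpin was near the share of all genes. The largest called changes were in the TEAD factors TEAD4 with senescence (-1.69 ± 0.20) and TEAD3 with the hairpin (-0.71 ± 0.20) and in the difference (-0.94 ± 0.28), in FSTL1, a secreted glycoprotein, with Tri-1 (-0.69 ± 0.08), and in WWTR1, which encodes TAZ, with DMSO (0.26 ± 0.08).

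Of 17 tested genes of the Arp2/3 complex, which branches filaments, and its activators, 3 rose and 8 fell with senescence, 3 rose and 7 fell with the hairpin, and 3 rose and none fell with Tri-1; CYFIP1 had no matching row. The shares higher (17.6% in each comparison) lay below those of all genes for senescence and the hairpin and above it for Tri-1, and the shares lower were 47.1% and 41.2% with senescence and the hairpin. The WAVE complex genes WASF1 with senescence (-0.60 ± 0.08), NCKAP1 with the hairpin (-1.38 ± 0.09) and in the difference (-1.32 ± 0.13) and WASF2 with DMSO (-0.24 ± 0.05), and the complex subunit ARPC4 with Tri-1 (0.36 ± 0.05), led these counts. Of 40 other actin-binding genes tested, 5 rose and 18 fell with senescence, 2 rose and 22 fell with the hairpin, and 4 rose and 3 fell with Tri-1. The shares lower were 45%, 55% and 7.5%, the last below the share of all genes. SVIL, the supervillin gene, changed by 2.83 ± 0.07 with senescence. The PDZ-LIM gene PDLIM4 changed by -2.02 ± 0.49 with the hairpin and by -2.75 ± 0.67 in the difference. Its relative PDLIM3 changed by -1.48 ± 0.12 with Tri-1 and by 1.49 ± 0.12 with DMSO against senescent control.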

How the data were processed

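RNA-seq counts per gene of 15 IMR90 libraries were analysed as the authors deposited them. RSEM 1.2.3, DESeq2 and the builds hg19 and mm10 appear in the submitters' processing notes with no stated role; the counting strand is not given in the sources used here. The 47 members and all lists were chosen with earlier results of these data known. Counts were fitted in edgeR 4.0.16 (R 4.3.3; TMM scaling, filterByExpr by group, robust quasi-likelihood F test, two-sided, 1 fit of all groups with 10 residual degrees of freedom). The SE is the change divided by the square root of F. Exon lengths and exon GC content came from GENCODE on GRCh38. Per-library levels were given for 10 set genes and, in each comparison, for the 5 largest called rises and falls, while list genes outside the set were named by the largest called change. In simulated counts 67 genes per comparison were changed by 2-fold, and most of the 15994 genes were left unchanged. The fit recovered 64.2% (senescence), 70.1% (hairpin) and 67.2% (Tri-1) of those changed by 2-fold. Far more genes were called in the data, so these rates do not give the power of the comparisons above. No 2 libraries agreed within sampling noise. Alternatives were DESeq2 1.42.0, limma 3.58.1, other scalings and filters, a replicate block, the compared groups alone, each library left out, and a GC correction. Leaving out growing replicate 1, shTXNRD1 replicate 3 and DMSO replicate 1 was added after seeing the data, as were shares per median transcript length. Each of these libraries was the lowest of its group in GC content. One further list of pathway genes is not reported here.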

Additional observations from a re-analysis of the deposited data

Results flagged for a closer look

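The hairpin and Tri-1 effects differed, by the test of their difference in edgeR (adjusted p under 0.05), in the following members; each value is the hairpin effect minus the Tri-1 effect on the log2 scale. Among the actins the difference was -0.25 for ACTA2, -1.01 for ACTB and -2.42 for ACTG1. In the smooth muscle filament proteins the difference was -0.97 for TAGLN, -2.12 for CNN1, -1.81 for LMOD1, -0.41 for SYNPO2 and -2.56 for SYNC. Of the other transgelin and calponins the difference was -1.39 for TAGLN2. For the tropomyosins the difference was -1.33 for TPM1, -1.02 for TPM2, -2.34 for TPM3 and -0.49 for TPM4. In myosin II genes the difference was 0.79 for MYH10, -0.48 for MYL6, -1.34 for MYL9, -0.30 for MYL12A and -0.78 for MYLK. Among crosslinkers and LIM scaffolds the difference was -0.98 for ACTN1, -1.46 for ACTN4, -1.70 for FLNA, -1.55 for FLNC, -2.31 for PDLIM1, -1.54 for PDLIM7, -0.43 for FHL1 and -1.10 for FHL2. For filament turnover and capping the difference was -2.51 for CFL1, -0.81 for DSTN, -0.99 for PFN1, -0.72 for PFN2, -0.28 for CAP1, -0.88 for WDR1, -0.26 for CAPZB and -0.27 for CORO1C. Among the regulators the difference was -0.86 for SRF, -0.98 for MYOCD and 0.74 for ANKRD1. MYH10 and ANKRD1 stood above 0 and the other members below it. The call was lost under at least 1 of the settings tried for 12 of them: ACTA2, CAP1, CAPZB, CORO1C, FLNA, FLNC, MYL12A, MYL9, PDLIM7, PFN1, SRF and SYNPO2. With the GC correction the difference was -0.24 for SRF (adjusted p = 0.172), -0.53 for PFN1 (0.0568) and -0.13 for CAPZB (0.13).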

How the results depend on the processing

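Over the settings tried the counts of members lower and higher with senescence (28 to 39 lower, 4 higher) and with the hairpin (31 to 41 lower, 2 higher) and in the difference (25 to 40 lower, 2 higher) stayed within 1.5 times the values above. The 9 members higher with Tri-1 became 15 with the GC correction, 15 with that correction and a replicate block, and 19 with the compared groups alone; leaving out 1 library gave 4 to 6. The 6 members higher with DMSO became 13 with the GC correction, 11 with that correction and a replicate block, and 10 with the compared groups alone. The 4 lower with DMSO became 7 in DESeq2, 11 with the GC correction with or without the block and 8 with the compared groups alone. They became 9 without growing replicate 1, shTXNRD1 replicate 3 and DMSO replicate 1. PDLIM7 reversed in senescence, from 0.28 to -0.33 with the GC correction (adjusted p = 3.47e-07) and -0.33 with that correction and the block (2.04e-06). The cause of these shifts was not tested. Fits that left libraries out also had fewer samples. The labels do not say whether replicate numbers pair the samples. Correlations of same-numbered deviations ran from -0.279 to 0.321, and with 3 libraries per group they cannot exclude pairing. A replicate block alone gave 34 lower with senescence, 36 with the hairpin, and 6 higher and 11 lower with Tri-1. Every setting kept the call of 32 of 38 members for senescence, 32 of 39 for the hairpin, 11 of 19 for Tri-1, 6 of 10 for DMSO and 25 of 37 for the difference. Depth limits DES, at 0 to 6 counts in the senescent libraries.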
